A study of Mus musculus with 11 samples.

Results

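The 33 genes described here encode enzymes and a transporter of methionine, choline, serine and folate metabolism, and they were taken by symbol from the 31280 genes of the deposited table, in which each of the 33 had 1 row. They were grouped into 8 genes of the methionine cycle, 3 methyltransferases, 10 genes of choline and phospholipid metabolism, 4 of transsulfuration, 3 of serine synthesis and 5 of the folate cycle. RNA was measured in livers of 11 wild-type C57BL/6 mice, all fed a diet lacking methionine and choline (MCD) for 8 weeks. In the limonin group 6 mice also received limonin, a citrus triterpenoid, by gavage at 100 mg/kg for 4 weeks, and in the MCD group 5 mice received water. The labels do not give the age of the mice, and no mice on a complete diet were analysed here, so the diet is shared by both groups and its own effect cannot be seen.

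In the methionine cycle, methionine is converted to S-adenosylmethionine, the methyl donor of the cell, which becomes homocysteine once the methyl group has been passed on. Homocysteine is either methylated back to methionine, with a methyl group from betaine (made from choline) or from folate, or it enters transsulfuration and becomes cysteine. Serine and glycine feed methyl groups into folate, and choline is needed for phosphatidylcholine, the phospholipid that coats the lipoproteins in which the liver exports fat. The liver carries most of the body's methionine metabolism, and a diet without methionine and choline produces steatohepatitis in mice.

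Genes of betaine, sarcosine and folate metabolism and several genes of the methionine cycle were higher in the limonin livers. The methionine cycle genes no longer passed the test without MCD 1 or MCD 2. Phgdh, the entry enzyme of serine synthesis, was lower, but it entered the test through the MCD libraries alone. An ethanolamine and a choline phospholipid enzyme, Pcyt2 and Chkb, were also lower, but each failed the test in 7 of the 11 fits that left out 1 library. Expression was given as FPKM, fragments scaled to transcript length and to the size of the library, and groups were compared on log2(FPKM + 1) with limma, with a call at a Benjamini-Hochberg adjusted p under 0.05. Of the 33 genes, 32 reached 1 FPKM in at least 5 libraries and were tested, Phgdh and Mthfd2 through the MCD libraries alone. Of these, 9 rose (28.1%), against 7.24% of all 10489 genes tested, and 3 fell (9.38%), against 18.7% of all genes tested. The other 20 were not called, so 12 of 32 were called in either direction, against 25.9% of all genes tested. The median log2 fold change was 0.31 over the 32 genes and -0.07 over all genes tested.

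The number of calls depended on single libraries and on scaling, among the 33 genes and among all genes. The summed deposited FPKM was 404050 to 462665 in limonin libraries and 464184 to 471623 in MCD libraries. Every limonin sum thus lay below every MCD sum, and the fit on deposited FPKM does not adjust for this. Leaving out MCD 1 reduced the genes called higher to 4 and leaving out MCD 2 reduced them to 3, and over all genes tested those called higher numbered 465 and 318 in these fits, against 759 with all libraries. Of the 33 genes, 1 was called lower once MCD 2, limonin 2 or limonin 6 had been left out. With no filter on low genes the calls were 2 higher (Dmgdh and Shmt1) and 1 lower (Phgdh). Higher calls made up 75.0% of the calls on deposited FPKM, 93.3% after median-ratio scaling or scaling to equal summed FPKM and 85.7% after quantile normalization, which moved the median of all genes upward by 0.08, 0.10 and 0.09 on the log2 scale. The share of higher calls over all genes moved with it, at 27.9% on deposited FPKM, 47.9% after median-ratio scaling, 49.6% at equal sums and 51.4% after quantile normalization, so the 7.24% and 18.7% above hold for deposited FPKM alone. In the authors' deposited table, 16 of the 33 genes were higher and 1 was lower at a q under 0.05, against 17.6% and 12.1% of the genes tested here. That table marks 3 of the 33 as higher (Bhmt, Nnmt and Sardh), against 3.99% of the genes tested, and 1 as lower (Phgdh), against 10.6%, where a mark also needs a fold of at least 1.5.

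**Figure D1:**
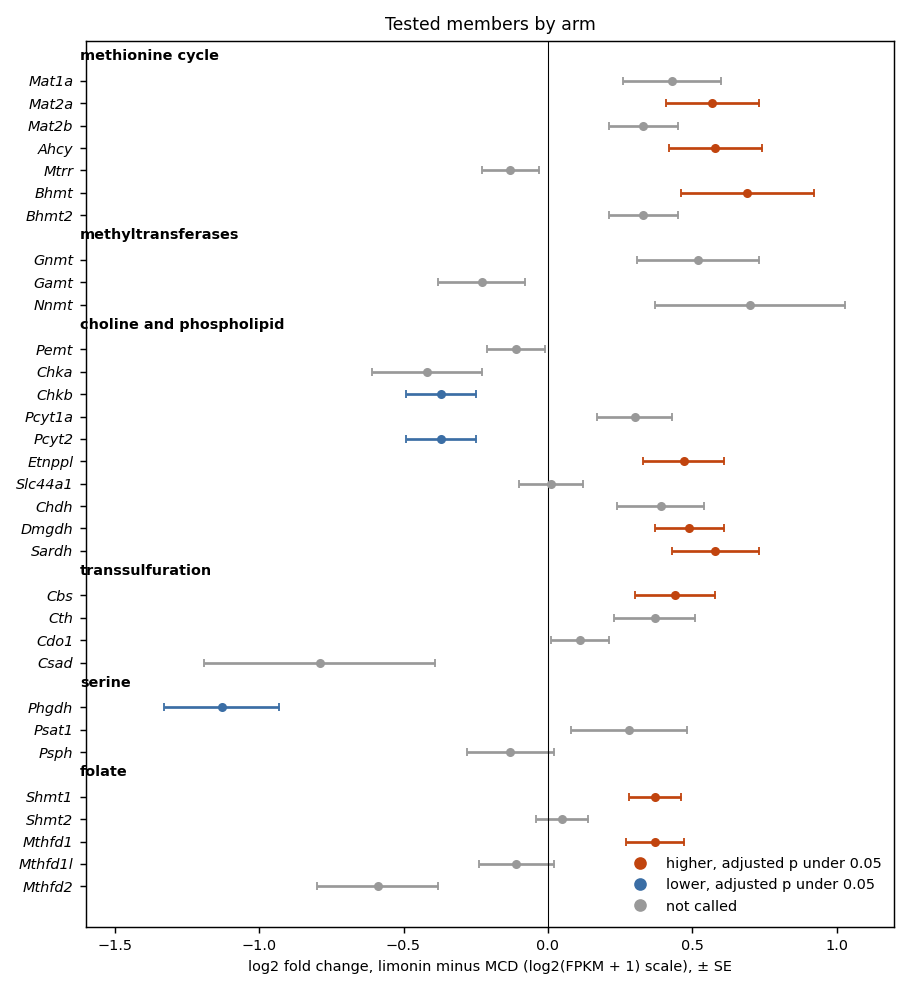
Log2 fold change (limonin minus MCD, ± SE) of the 32 tested genes, grouped by arm, with called genes in colour and uncalled genes in grey. The 9 genes called higher lay between 0.37 (Shmt1 and Mthfd1) and 0.69 (Bhmt), and the 3 called lower were Phgdh at -1.13 and Chkb and Pcyt2 at -0.37.

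Markers of other liver cells moved with the groups. Beside the counts below, 7.24% of all genes tested rose and 18.7% fell. Hepatocytes, the cells that express most of these enzymes, were clearly represented. Their 15 markers included 7 that rose (46.7%, beside 28.1% of the 32 tested genes above) and 8 without a call. Their summed level was 53718 to 72155 FPKM in limonin livers and 48859 to 60338 FPKM in MCD livers. Among 9 markers of stellate cells and fibroblasts, 8 fell and 1 was not called, with sums of 52.7 to 73.9 FPKM in limonin livers and 86.6 to 167 FPKM in MCD livers. Of 7 cholangiocyte (bile duct cell) markers 5 were tested and fell, with sums of 20.9 to 82.9 FPKM in limonin livers and 68.4 to 401 FPKM in MCD livers. Of 8 macrophage markers 7 were tested and 4 fell (89.7 to 153 FPKM in limonin livers, 156 to 596 FPKM in MCD livers). Of 6 periportal hepatocyte markers 3 rose (50.0%), with sums of 1031 to 1901 FPKM in limonin livers and 856 to 1229 FPKM in MCD livers. Of 7 tested pericentral markers 0 were called, and the median log2 fold change was -0.05 (3 positive and 4 negative). The sums of the pericentral list were 4915 to 7420.5 FPKM in limonin livers and 4159.8 to 5967 FPKM in MCD livers. Most of these sums was Cyp2e1 (4227 to 6624 FPKM in limonin livers, 3700.4 to 5115 FPKM in MCD livers). Of 6 endothelial markers 1 rose, and of 7 lymphocyte markers 2 were tested and fell. The cholangiocyte marker Cldn4 reached 1 FPKM in 1 limonin and 5 MCD libraries, and Sox9 in 3 and 5. For the lymphocyte marker Cd79a these were 1 and 4. Such markers entered the test largely through the MCD libraries, and a marker as low in both groups would not have been tested. The counts of fallen markers carry this limit. None of the markers of these lists was at 0 in all libraries. Their part in the results on the enzymes was not tested, and in bulk RNA a smaller number of cells of a type and less RNA per cell cannot be told apart.

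The libraries themselves differed in which genes they carried at high levels. Of the 33 genes, 13 had their highest limonin value in limonin 2 and 12 their highest MCD value in MCD 4. MCD 1 had the lowest MCD value for 10 genes and the highest for 9. Such counts were not taken over all genes, so whether they are particular to the 33 genes cannot be told. Between 9742 and 11087 genes per library reached 1 FPKM, and the step between low values implied 15510000 to 19640000 fragments per library.

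**Figure D2:**
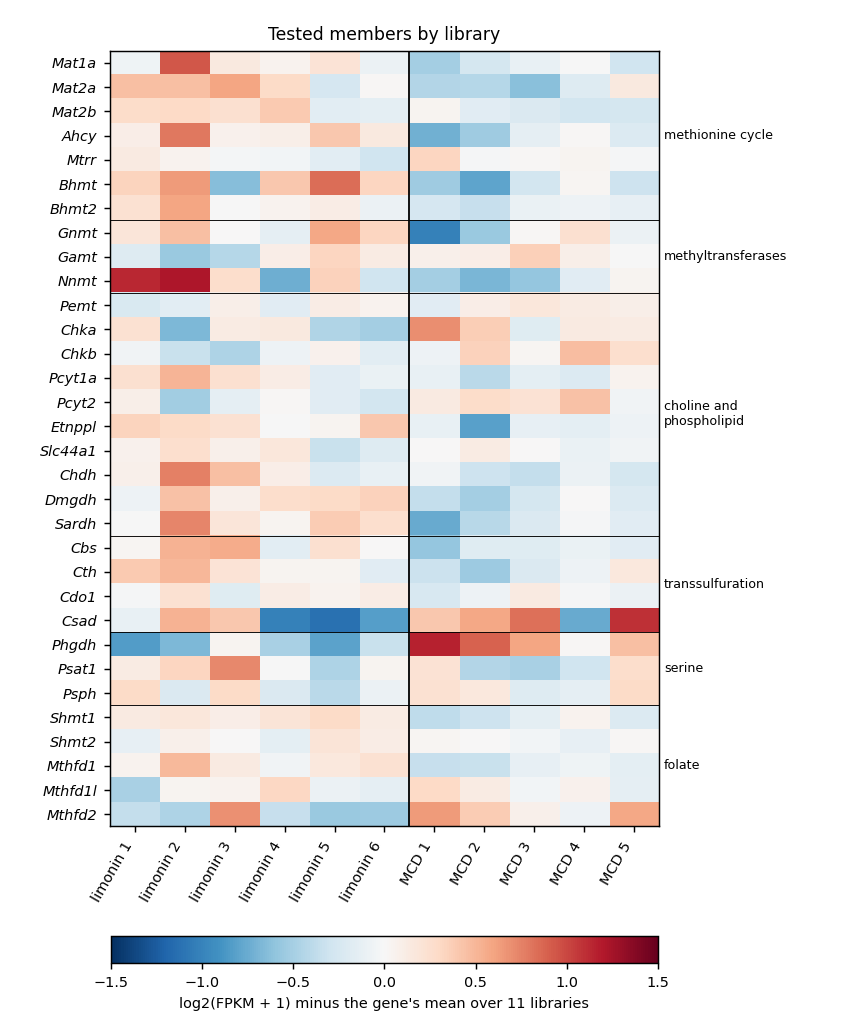
Level of each tested gene in each library as log2(FPKM + 1) minus the gene's mean over the 11 libraries, with red above and blue below that mean, limonin on the left and MCD on the right. Mat1a stood out in limonin 2 (1476 FPKM), Nnmt in limonin 1 and 2 (105 and 110.5 FPKM) and Phgdh in MCD 1 (4.10 FPKM).

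In the methionine cycle 3 of 7 tested genes rose (42.9%, against 7.24% of all genes tested) and 4 were not called. The most abundant was Mat1a, which encodes the S-adenosylmethionine synthetase of adult hepatocytes. Its FPKM had a low of 724, a median of 831 and a high of 1476 in limonin livers, and was 541, 644, 716, 772 and 628 in MCD 1 to 5. The groups overlapped, and 4 of 6 limonin libraries exceeded the highest MCD value. The log2 fold change of Mat1a was 0.43 ± 0.17 (SE) and it was not called (limma adjusted p = 0.0744), although it was called after scaling to equal summed FPKM (adjusted p = 0.0399), and the authors' deposited table gives it a q of 0.022.

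Mat2a (chr6:72432799-72439558), the synthetase form of other tissues and of dividing cells, was expressed at a small share of the level of Mat1a. Its FPKM ran from 33.1 through a median of 51.3 to 59.9 in limonin livers and was 28.9, 29.1, 25.3, 34.4 and 43.8 in MCD 1 to 5. It rose by 0.57 ± 0.16 on the log2 scale (limma adjusted p = 0.0233), and 4 of 6 limonin libraries exceeded the highest MCD value. The call was lost without MCD 1, 2 or 3 (largest adjusted p 0.0662). Mat2b, the regulatory subunit that partners Mat2a, averaged 6.78 ± 1.21 FPKM in limonin livers and 5.16 ± 0.562 FPKM in MCD livers (SD, n = 6 and 5). Its log2 fold change of 0.33 ± 0.12 missed the threshold (limma adjusted p = 0.0568), but it was called without limonin 5 (adjusted p = 0.0244) or limonin 6 and after median-ratio, quantile or equal-sum scaling.

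The ratio of Mat1a to Mat2a within a library, which no scaling of the library can change, was 13.6 to 27.2 in limonin livers (median 17.3) and 14.3 to 28.3 in MCD livers (median 22.1). The groups overlapped in this ratio, with 2 limonin libraries under the lowest MCD value.

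Ahcy (chr2:155059310-155074497), which splits S-adenosylhomocysteine, the product and inhibitor of methylation reactions, had a low of 337, a median of 352 and a high of 559 FPKM in limonin livers. In MCD 1 to 5 it stood at 195, 223, 293, 327 and 279 FPKM. Every limonin library was above every MCD library, and the log2 fold change was 0.58 ± 0.16 (limma adjusted p = 0.0197). Leaving out MCD 1 or MCD 2 ended the call (largest adjusted p 0.0623).

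Remethylation of homocysteine was represented by a betaine branch at high levels and a folate branch at low levels. Bhmt (chr13:93616675-93637961), which passes a methyl group from betaine to homocysteine, had a low of 318, a median of 638 and a high of 885 FPKM in limonin livers. Its MCD values were 342, 287, 408, 506 and 399 FPKM in MCD 1 to 5. The 5 limonin libraries other than limonin 3 lay above every MCD library. Bhmt rose by 0.69 ± 0.23 on the log2 scale (limma adjusted p = 0.0383), the largest rise among the called members, but the call disappeared in 9 of the 11 fits without 1 library (adjusted p up to 0.109). It held where MCD 4 or limonin 3 was left out.

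Bhmt2, its neighbour and close relative, which uses S-methylmethionine as methyl donor, averaged 95.5 ± 17.5 FPKM in limonin livers and 75.1 ± 6.00 FPKM in MCD livers (SD, n = 6 and 5). Its log2 fold change of 0.33 ± 0.12 missed the threshold (limma adjusted p = 0.0561), but it was called without limonin 6 and after median-ratio or equal-sum scaling. The ratio of Bhmt to Bhmt2 was 3.75 to 9.64 in limonin livers and 4.31 to 6.28 in MCD livers, with 3 limonin libraries above every MCD library and limonin 3 below them. Reads shared between similar genes such as this pair could have been divided between them by the authors' quantification.

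The cobalamin-dependent methionine synthase gene Mtr stayed below the filter, at 0.601 to 1.01 FPKM in limonin livers and 0.580 to 0.884 FPKM in MCD livers, and was not tested. Mtrr, which keeps that enzyme in its active form, ran from 0.929 to 1.60 FPKM in limonin livers and from 1.34 to 1.98 FPKM in MCD livers, with a log2 fold change of -0.13 ± 0.10 (limma adjusted p = 0.38). In both groups the transcripts of the betaine branch were thus more abundant per length than those of the folate branch. The calls of this arm depended on single libraries: 0 of its genes were called higher without MCD 1 or MCD 2 and 1 without MCD 3.

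Of 12 tested genes that border the methionine cycle, 2 rose (16.7%, against 7.24% of all genes tested) and 10 were not called. Adk, which removes the adenosine that Ahcy releases, rose by 0.35 ± 0.11 and Adi1, a dioxygenase of methionine salvage, by 0.39 ± 0.13 on the log2 scale, and each lost its call in 7 of the 11 fits without 1 library (largest adjusted p 0.111 and 0.102). Mri1 and Mtap, further enzymes of methionine salvage, had log2 fold changes of -0.33 ± 0.12 and 0.29 ± 0.12 and were not called.

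None of the 3 methyltransferases was called. Gnmt, the glycine methyltransferase that consumes surplus S-adenosylmethionine and makes sarcosine, had a low of 606, a median of 791 and a high of 991 FPKM in limonin livers, against 328, 451, 670.5, 782 and 625 FPKM in MCD 1 to 5. The spread in MCD livers was wide, and 3 of 6 limonin libraries lay above it. Its log2 fold change of 0.52 ± 0.21 missed the threshold (limma adjusted p = 0.0794) and passed it without MCD 4 (adjusted p = 0.0336) and at equal summed FPKM (0.0354).

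Nnmt, which methylates nicotinamide, was uneven among limonin livers (coefficient of variation 51.4%, and 22.4% among MCD livers). Its FPKM was 105, 110.5, 56.7, 28, 60.1 and 38.2 in limonin 1 to 6 and 32.8, 28.9, 31.3, 41.7 and 48.6 in MCD 1 to 5. Limonin 1, 2, 3 and 5 were above every MCD library and limonin 4 was below them all. The log2 fold change was 0.70 ± 0.33 (limma adjusted p = 0.136), and without limonin 4 it was 0.91 with a call (adjusted p = 0.0381). The authors' deposited table marks Nnmt as significant with a fold of 1.81 and a q of 0.00978. Gamt, which makes creatine, averaged 83.5 ± 19.6 FPKM in limonin livers and 96.1 ± 9.69 FPKM in MCD livers, with a log2 fold change of -0.23 ± 0.15 (limma adjusted p = 0.274).

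Of 8 further genes of methyl transfer, 1 fell (12.5%, against 18.7% of all genes tested) and 7 were not called. Prmt1, the main arginine methyltransferase of proteins, averaged 8.11 ± 1.51 FPKM in limonin livers and 11.6 ± 2.15 FPKM in MCD livers, a log2 fold change of -0.47 ± 0.14 (limma adjusted p = 0.0258). It lost the call without MCD 1 or 2 (largest adjusted p 0.0813) and at equal summed FPKM, and was not called in the authors' deposited table. Tpmt and As3mt, which methylate thiopurines and arsenic, had log2 fold changes of 0.36 ± 0.15 and 0.25 ± 0.11, and Gatm, the partner of Gamt in creatine synthesis, -0.14 ± 0.10, none of them called.

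The choline and phospholipid arm held changes in both directions, with 3 of 10 genes higher (30.0%, against 7.24% of all genes tested), 2 lower and 5 not called. The 2 lower calls were 20% of the arm, near the 18.7% of all genes tested. The genes that rose act in the breakdown of betaine and of phosphoethanolamine, and those that fell phosphorylate choline or activate ethanolamine for phospholipid synthesis. Without limonin 5 the genes called higher numbered 5. Leaving out MCD 1, MCD 3, MCD 5 or limonin 4 left 1 gene called lower, and leaving out MCD 2, MCD 4 or limonin 2, 3 or 6 left 0.

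Choline is oxidised to betaine by Chdh, and once betaine has given a methyl group to homocysteine, Dmgdh and Sardh strip the remaining methyl groups from dimethylglycine and sarcosine and hand them to folate. Dmgdh (chr13:93674433-93752833) had a low of 119.5, a median of 152 and a high of 171 FPKM in limonin livers, against 98.4, 87.9, 105, 127 and 109 FPKM in MCD 1 to 5. It rose by 0.49 ± 0.12 on the log2 scale (limma adjusted p = 0.0101), and 5 of 6 limonin libraries exceeded the highest MCD value. Sardh (chr2:27188393-27248337) had a low of 79.0, a median of 92.1 and a high of 132 FPKM in limonin livers, against 46.4, 58.9, 68.1, 78.3 and 70.3 FPKM in MCD 1 to 5.

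All 6 limonin libraries lay above all 5 MCD libraries for Sardh, which rose by 0.58 ± 0.15 (limma adjusted p = 0.0151). Dmgdh and Sardh kept their calls in each of the 11 fits without 1 library, with largest adjusted p of 0.0376 and 0.0464. The call of Sardh was lost with no filter on low genes (adjusted p = 0.0534). Chdh averaged 21.4 ± 6.00 FPKM in limonin livers and 15.7 ± 1.57 FPKM in MCD livers (SD, n = 6 and 5). Chdh had a log2 fold change of 0.39 ± 0.15 and was not called (limma adjusted p = 0.0738), except without limonin 5, where the adjusted p was 0.0342, after median-ratio or quantile scaling, and without both limonin 5 and 6.

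Dmgdh and Bhmt2 lie head to head on chromosome 13, with Bhmt on the far side of Bhmt2 and on the same strand. The 133 bases between the RefSeq starts of Bhmt2 (transcribed leftward) and Dmgdh (transcribed rightward) are chr13:93674303-93674435 (GRCm38.p6, plus strand). They are shown because these neighbours share them.
between Bhmt2 and Dmgdh: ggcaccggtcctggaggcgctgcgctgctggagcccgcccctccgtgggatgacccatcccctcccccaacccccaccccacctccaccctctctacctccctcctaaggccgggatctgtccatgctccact
The stretch is rich in G and C (69.9%) and holds none of the 3 motifs searched in promoters (TGATGNAA, the core of the amino acid response element, CACGTG, the E-box, and CCAAT, each on both strands), so no letter is in capitals. From the 2 sides of it, Dmgdh and Bhmt2 had log2 fold changes of 0.49 and 0.33.

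**Figure D3:**
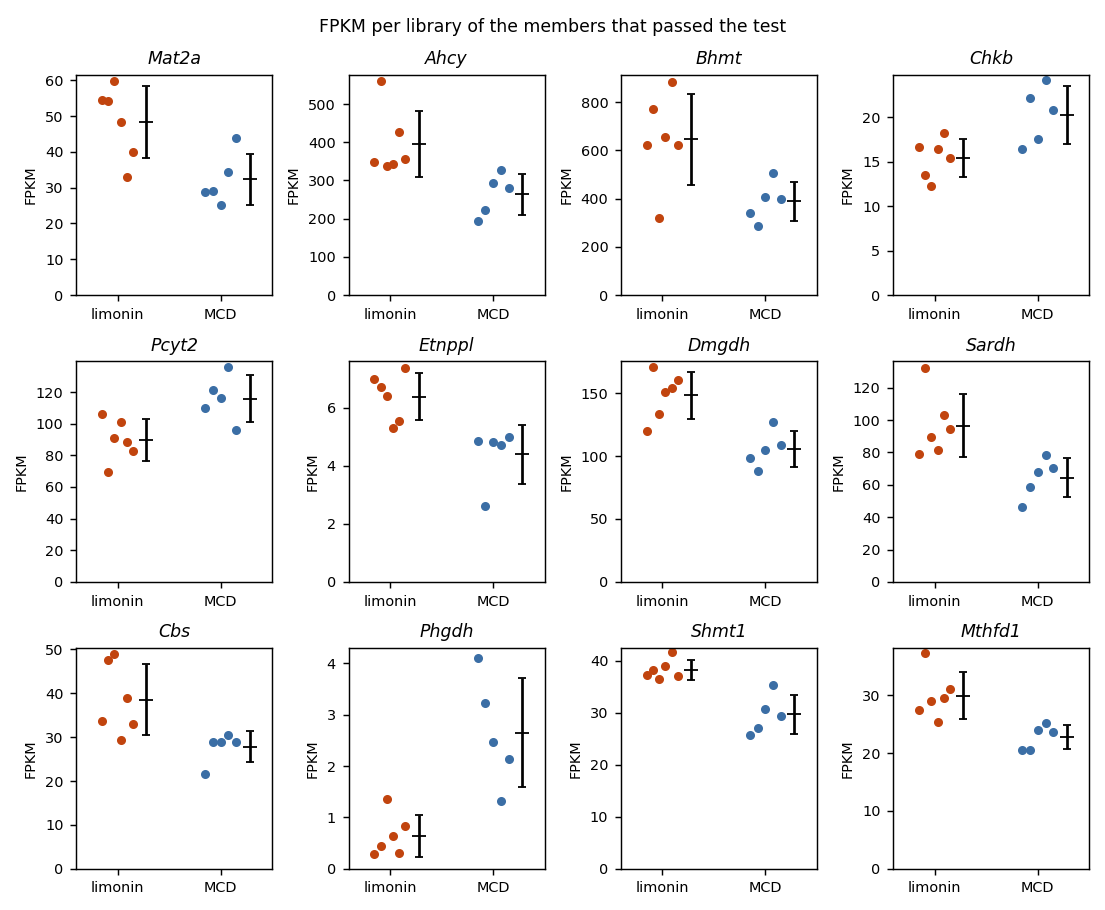
FPKM of the 12 genes that passed the test in each library (points), with the mean and SD of each group beside them, limonin left of MCD in each panel, all axes starting at 0. Limonin and MCD libraries did not overlap for Ahcy, Etnppl, Sardh, Shmt1 and Mthfd1, and the limonin 3 value of Phgdh (1.36 FPKM) lay just above its lowest MCD value (1.32 FPKM).

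Synthesis of phosphatidylcholine starts with uptake and phosphorylation of choline. The choline transporter gene Slc44a1 ran from 1.92 to 3.38 FPKM in limonin livers and from 2.42 to 2.99 FPKM in MCD livers, with a log2 fold change of 0.01 ± 0.11 (limma adjusted p = 0.961) whose sign turned in 6 of the fits without 1 library. The choline kinase gene Chkb (chr15:89426360-89429908) had a low of 12.3, a median of 15.9 and a high of 18.2 FPKM in limonin livers, against 16.4, 22.2, 17.6, 24.2 and 20.8 FPKM in MCD 1 to 5. It fell by 0.37 ± 0.12 on the log2 scale (limma adjusted p = 0.0388), and 3 of 6 limonin libraries were under the lowest MCD value.

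The fall of Chkb was not stable. Its adjusted p passed 0.05 in 7 of the 11 fits without 1 library, each of which left out MCD 2, MCD 4, MCD 5 or limonin 2, 3, 4 or 6 (adjusted p up to 0.107), and after median-ratio scaling (log2 fold change -0.28, adjusted p = 0.15), quantile normalization (-0.32, 0.0752) and scaling to equal summed FPKM (-0.26, 0.129). The authors' deposited table gives it a q of 0.405. Chkb also overlaps a transcribed gene on its own strand, Gm44502, at 3.23 FPKM in limonin livers and 6.43 FPKM in MCD livers, and fragments of the 2 genes may have been divided between them. The other choline kinase gene, Chka, averaged 1.99 ± 0.794 FPKM in limonin livers and 2.96 ± 0.919 FPKM in MCD livers, with a log2 fold change of -0.42 ± 0.19 (limma adjusted p = 0.122). The ratio of Chka to Chkb was 0.0775 to 0.211 in limonin livers and 0.108 to 0.266 in MCD livers, with 3 limonin libraries below every MCD library.

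The next enzyme, Pcyt1a, sets the rate of the choline pathway. It averaged 6.72 ± 1.34 FPKM in limonin livers and 5.21 ± 0.708 FPKM in MCD livers, with a log2 fold change of 0.30 ± 0.13 that was not called (limma adjusted p = 0.0915) except without limonin 5 (adjusted p = 0.0408), after median-ratio or quantile scaling, and without both limonin 5 and 6. Pcyt2 (chr11:120610087-120617936), the matching enzyme for ethanolamine, had a low of 69.2, a median of 89.7 and a high of 106 FPKM in limonin livers, against 110.1, 121, 116, 136 and 96.3 FPKM in MCD 1 to 5. It fell by 0.37 ± 0.12 on the log2 scale (limma adjusted p = 0.0373), and 4 of 6 limonin libraries were under the lowest MCD value.

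Like that of Chkb, the call of Pcyt2 was lost in 7 of the 11 fits without 1 library, each of which left out MCD 1, MCD 2, MCD 3, MCD 4 or limonin 2, 3 or 6 (adjusted p up to 0.0936). It was also lost after median-ratio scaling (-0.27, adjusted p = 0.099) and at equal summed FPKM (-0.25, 0.139), and the authors' deposited table gives a q of 0.239. The ratio of Pcyt1a to Pcyt2 is free of library scaling. It was 0.0682, 0.128, 0.0790, 0.0647, 0.0581 and 0.0662 in limonin 1 to 6 and 0.0494, 0.0349, 0.0452, 0.0367 and 0.0640 in MCD 1 to 5. In 5 of 6 limonin libraries the ratio exceeded the highest MCD value, and limonin 5 lay within the MCD range, a description without a test.

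**Figure D4:**
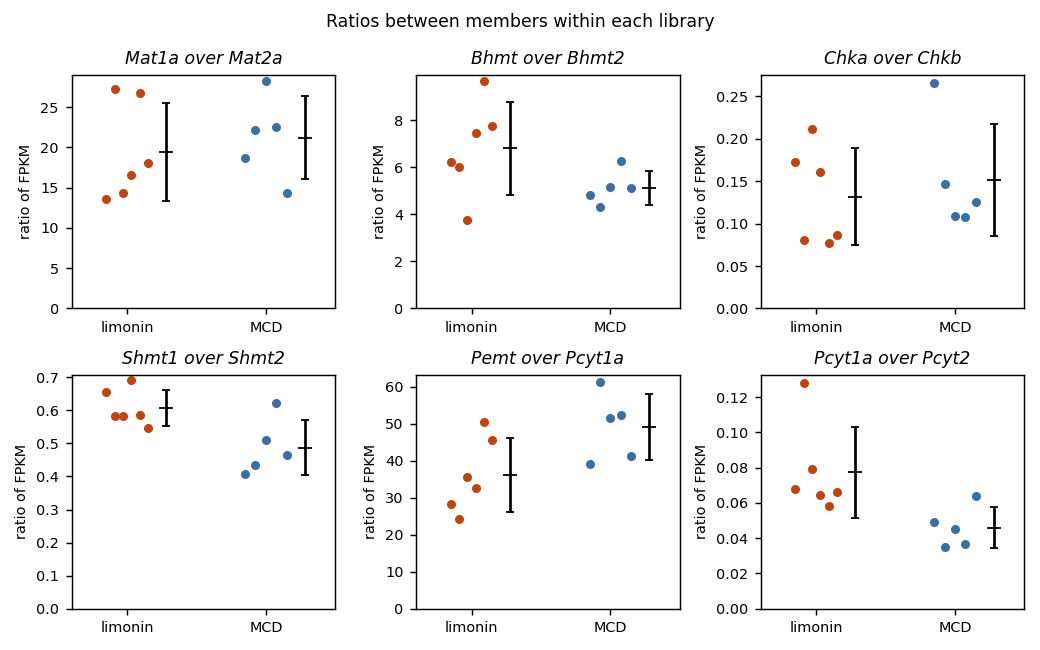
Ratio of FPKM between 6 pairs of genes within each library (points), with the mean and SD of each group, limonin left of MCD, all axes starting at 0. The groups overlapped in all 6 panels, least for Pcyt1a over Pcyt2 (5 of 6 limonin libraries over the highest MCD value), and Pemt over Pcyt1a lay under the lowest MCD value in 4 of the 6 limonin libraries.

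Pemt, which makes phosphatidylcholine from phosphatidylethanolamine with S-adenosylmethionine as methyl donor, was abundant and close between groups. It had a low of 204, a median of 232 and a high of 259 FPKM in limonin livers, against 213, 258, 269.6, 261 and 254 FPKM in MCD 1 to 5. Its log2 fold change of -0.11 ± 0.10 was not called (limma adjusted p = 0.441) and became 0.01 at equal summed FPKM. The ratio of Pemt to Pcyt1a, which sets the methylation route beside the choline route, was 24.3 to 50.4 in limonin livers (median 34.1) and 39.2 to 61.3 in MCD livers (median 51.4).

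Etnppl (chr3:130617448-130637521), which breaks down phosphoethanolamine, the substrate of Pcyt2, had a low of 5.31, a median of 6.55 and a high of 7.35 FPKM in limonin livers, against 4.84, 2.60, 4.80, 4.70 and 5.00 FPKM in MCD 1 to 5. All limonin libraries were above all MCD libraries. Etnppl rose by 0.47 ± 0.14 on the log2 scale (limma adjusted p = 0.024), and without MCD 2, its lowest library, the log2 fold change was 0.33 and the adjusted p 0.0544.

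Among 16 further genes of choline and phospholipid metabolism, 6 rose (37.5%), 1 fell (6.25%) and 9 were not called. Of all genes tested, 7.24% rose and 18.7% fell. Pipox, a peroxisomal oxidase of sarcosine and pipecolate, averaged 20.7 ± 3.29 FPKM in limonin livers and 12 ± 2.66 FPKM in MCD livers, a log2 fold change of 0.74 ± 0.14 (limma adjusted p = 0.00348). Chpt1, which joins activated choline to diacylglycerol in the last step of phosphatidylcholine synthesis, averaged 11.3 ± 2.39 FPKM in limonin livers and 6.56 ± 1.09 FPKM in MCD livers, a rise of 0.69 ± 0.14 (0.00482). Lcat, the plasma enzyme that esterifies cholesterol with a fatty acid from phosphatidylcholine, rose by 0.53 ± 0.11. The choline transporter gene Slc44a2 fell by 0.67 ± 0.13, with 1.35 ± 0.303 FPKM in limonin livers and 2.75 ± 0.663 FPKM in MCD livers. These 4 genes kept their calls in each fit without 1 library.

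Transsulfuration had 1 gene higher and 3 not called among 4 (25.0% higher, against 7.24% of all genes tested). Cbs (chr17:31608894-31637238), which joins homocysteine to serine and commits it to cysteine, had a low of 29.3, a median of 36.3 and a high of 48.9 FPKM in limonin livers, against 21.7, 28.9, 28.8, 30.6 and 29.0 FPKM in MCD 1 to 5. It rose by 0.44 ± 0.14 on the log2 scale (limma adjusted p = 0.0341), and 5 of 6 limonin libraries exceeded the highest MCD value. Leaving out any of MCD 1, MCD 2, MCD 3, MCD 5, limonin 2 and limonin 3 ended the call (adjusted p up to 0.0904), as did leaving out both MCD 4 and 5, and without limonin 6 the genes of this arm called higher numbered 2.

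Cth, which releases cysteine in the second step, averaged 105 ± 18.4 FPKM in limonin livers and 81.2 ± 15.2 FPKM in MCD livers. Its log2 fold change of 0.37 ± 0.14 was not called (limma adjusted p = 0.072) except without MCD 5 or limonin 6 (lowest adjusted p 0.0397), after median-ratio or equal-sum scaling, and in the fits that left out limonin 5 and 6 or MCD 4 and 5. Downstream, Cdo1, which oxidises cysteine, was among the most abundant genes of the set. It averaged 529 ± 50.1 FPKM in limonin livers and 489 ± 46.1 FPKM in MCD livers, with a log2 fold change of 0.11 ± 0.10 (limma adjusted p = 0.456).

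Csad, which makes the taurine precursor hypotaurine, split the animals within each group. It stood at 9.41, 15.2, 13.9, 4.59, 4.19 and 5.33 FPKM in limonin 1 to 6 and at 13.9, 15.8, 19.0, 5.66 and 23.1 FPKM in MCD 1 to 5. Limonin 4, 5 and 6 lay below every MCD library, and MCD 4 lay near them. The log2 fold change was -0.79 ± 0.40 (limma adjusted p = 0.17), and -1.08 with a call without MCD 4 (adjusted p = 0.0455). Csad overlaps Zfp740 on the opposite strand (6.59 FPKM in limonin livers and 8.90 FPKM in MCD livers), and it is not stated whether the authors quantified the strands apart.

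Of 13 further genes of cysteine, glutathione and sulfide metabolism, 2 rose (15.4%, against 7.24% of all genes tested) and 11 were not called. Sqor, the mitochondrial oxidase of hydrogen sulfide, averaged 32.6 ± 5.18 FPKM in limonin livers and 22.7 ± 0.696 FPKM in MCD livers, a log2 fold change of 0.49 ± 0.11 (limma adjusted p = 0.00678). Ethe1, which acts after it, rose by 0.32 ± 0.11, a call that 7 of the 11 fits without 1 library lost (largest adjusted p 0.109). Suox and Baat, which oxidise sulfite and conjugate bile acids with taurine, had log2 fold changes of 0.39 ± 0.16 and 0.24 ± 0.10 and were not called.

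The serine arm held the largest difference of the 32 tested genes. Phgdh (chr3:98313170-98339990), which takes a glycolytic intermediate into serine synthesis, fell by 1.13 ± 0.20 on the log2 scale (limma adjusted p = 0.00277). It was at 0.287, 0.441, 1.36, 0.636, 0.316 and 0.823 FPKM in limonin 1 to 6 and at 4.10, 3.22, 2.46, 1.32 and 2.13 FPKM in MCD 1 to 5. The groups overlapped only through limonin 3 and MCD 4, and 5 of 6 limonin libraries were under the lowest MCD value.

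At these low values the log2(FPKM + 1) scale understates the change, and the authors' deposited table gives Phgdh a fold of 0.243 and a q of 2.11e-05. The gene entered the test through the MCD libraries alone, since only 1 limonin library reached 1 FPKM, so a gene as low in both groups would not have been tested. Its call held in the 11 fits without 1 library (largest adjusted p 0.0114) and under each scaling, while a filter at 5 FPKM or the removal of MCD 4 and 5 took the gene out of the test.

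The summed cholangiocyte markers were at 33.1, 48.6, 82.9, 40.8, 20.9 and 40.0 FPKM in limonin 1 to 6 and 401, 172, 126, 68.4 and 151 FPKM in MCD 1 to 5. MCD 1 was highest of all libraries in both Phgdh and this sum, MCD 4 was lowest of the MCD livers in both, and limonin 3 was highest of the limonin livers in both. The low ends differed, with the lowest Phgdh in limonin 1 and the lowest sum in limonin 5. Most of the sum was Spp1, osteopontin, which macrophages also express (63.2 FPKM in limonin 3, 353 FPKM in MCD 1 and 52.3 FPKM in MCD 4). The other 6 markers summed to 5.14, 12, 19.7, 7.32, 5.23 and 8.04 FPKM in limonin 1 to 6 and 48.7, 39.2, 28.7, 16.1 and 24.4 FPKM in MCD 1 to 5. Epcam, an adhesion protein of bile duct cells, was at 1.67, 2.82, 5.06, 2.32, 1.18 and 1.97 FPKM in limonin 1 to 6 and 19.0, 10.6, 8.66, 4.35 and 7.83 FPKM in MCD 1 to 5. Krt19, also on the list, was highest of the limonin livers in limonin 2 (6.45 FPKM). Among MCD livers it was highest in MCD 2 (14.5 FPKM) and lowest in MCD 5 (7.02 FPKM). MCD 4 was also the lowest MCD liver in the summed stellate cell and fibroblast markers (86.6 FPKM) and macrophage markers (156 FPKM). Of the 7 listed cholangiocyte markers none was at 0 in every library. The part of cholangiocytes in the Phgdh difference was not tested.

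**Figure D5:**
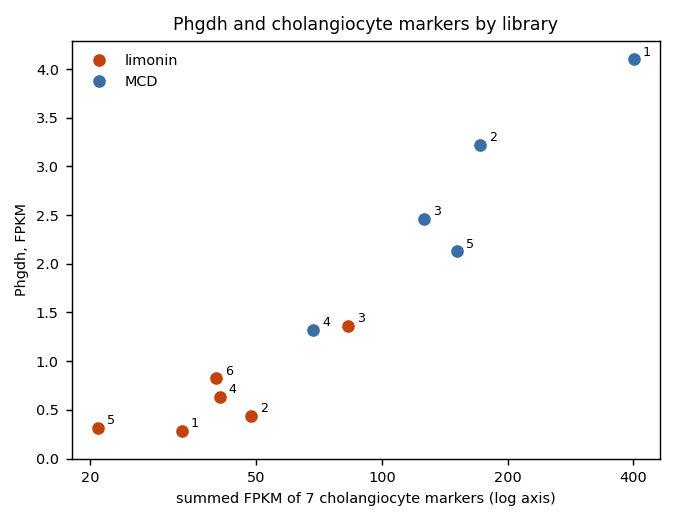
Phgdh (FPKM) against the summed FPKM of 7 cholangiocyte markers (mostly Spp1) on a log axis, 1 point per library numbered by replicate, limonin in orange and MCD in blue. MCD 1 was highest on both axes, and limonin 3 (1.36 and 82.9 FPKM) lay beside MCD 4 (1.32 and 68.4 FPKM).

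The next enzymes of serine synthesis were not called. Psat1, the aminotransferase, had a low of 5.23, a median of 8.07 and a high of 13.1 FPKM in limonin livers, against 8.93, 5.32, 5.10, 5.94 and 9.27 FPKM in MCD 1 to 5. The log2 fold change of Psat1 was 0.28 ± 0.20 (limma adjusted p = 0.321). Psph, the phosphatase that releases serine, averaged 1.95 ± 0.596 FPKM in limonin livers and 2.20 ± 0.477 FPKM in MCD livers, with a log2 fold change of -0.13 ± 0.15 (limma adjusted p = 0.529). A transcript of Cct6a on the opposite strand overlaps Psph and was more abundant (21.3 FPKM in limonin livers and 20.6 FPKM in MCD livers). Whether the difference between Phgdh and the other genes exceeds their error was not tested.

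The 250 bases upstream of the RefSeq start of each serine gene (GRCm38.p6, minus strand, printed 5′ to 3′) are shown. The 3 genes encode consecutive enzymes, and of them only Phgdh was called. CCAAT or its reverse complement ATTGG is in capitals.
Phgdh, chr3:98339970-98340219: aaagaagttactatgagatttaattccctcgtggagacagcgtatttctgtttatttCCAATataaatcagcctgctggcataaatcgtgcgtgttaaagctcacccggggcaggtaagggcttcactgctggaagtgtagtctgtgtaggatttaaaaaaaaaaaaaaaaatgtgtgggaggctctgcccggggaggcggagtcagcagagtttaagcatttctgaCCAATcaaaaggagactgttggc
Psat1, chr19:15925060-15925309: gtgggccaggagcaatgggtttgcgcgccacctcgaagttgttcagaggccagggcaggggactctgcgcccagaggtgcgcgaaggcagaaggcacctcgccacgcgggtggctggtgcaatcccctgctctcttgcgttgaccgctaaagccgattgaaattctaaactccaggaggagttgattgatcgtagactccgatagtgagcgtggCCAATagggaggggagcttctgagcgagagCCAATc
Psph, chr5:129787254-129787503: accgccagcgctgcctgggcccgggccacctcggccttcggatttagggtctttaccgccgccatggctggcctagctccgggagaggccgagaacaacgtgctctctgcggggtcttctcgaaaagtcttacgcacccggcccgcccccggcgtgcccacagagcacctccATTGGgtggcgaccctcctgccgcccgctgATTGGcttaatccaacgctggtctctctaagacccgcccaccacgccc
Each of the 3 stretches shown holds 2 such matches, and Psat1 has a further match 23 bases after its start, outside the stretch. The part of these matches in the expression of the genes was not tested. The windows differ in base composition, with 44% G and C for Phgdh, 59.6% for Psat1 and 67.2% for Psph.

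RefSeq promoter windows (250 bases before and 50 after the start) were found for 28 of the 33 genes, and not for Mat1a, Nnmt, Pcyt2, Cth and Cdo1. These genes had 38 windows, since some have more than 1 start. CCAAT was in 19 of the 38 windows, which belong to 18 of the 28 genes, and in 37.4% of all 32851 windows. CACGTG was in 1 of the 38, that of Cbs, and in 7.15% of all windows. TGATGNAA was in 0 of the 38 and in 3.97% of all windows. These matches are descriptions of the letters in these windows only.

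ATF4, a transcription factor of the amino acid response, is known to induce serine and mitochondrial folate genes. Of 8 genes listed as Atf4 and its targets 7 were tested, 2 fell (28.6%, against 18.7% of all genes tested) and 5 were not called. Ddit3, the stress factor also called CHOP, fell by 1.09 ± 0.22, with 8.38 ± 3.56 FPKM in limonin livers and 18 ± 2.26 FPKM in MCD livers (limma adjusted p = 0.00547), and Slc3a2, a heavy chain of amino acid transporters, fell by 0.72 ± 0.23. The call of Slc3a2 was lost in 7 of the 11 fits without 1 library (largest adjusted p 0.0994) and at equal summed FPKM. Atf4 itself and Sesn2 had log2 fold changes of -0.29 ± 0.20 and -0.13 ± 0.14. The listed targets Asns, Trib3 and Chac1 had 0.03 ± 0.22, -0.15 ± 0.20 and -0.00 ± 0.24. None of these 5 was called.

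Genes that break down glycine, which is made from serine, were among those that rose. Of 10 further genes of serine and glycine metabolism 3 rose (30.0%, against 7.24% of all genes tested) and 7 were not called. All 3 that rose encode parts of the mitochondrial glycine cleavage system, which passes a carbon of glycine to folate. Gldc, its decarboxylase, was at 8.32, 19.9, 12.7, 10.6, 12.5 and 11.8 FPKM in limonin 1 to 6 and 6.38, 3.50, 5.34, 5.34 and 7.50 FPKM in MCD 1 to 5. Every limonin library was above every MCD library, and Gldc rose by 1.03 ± 0.19 (limma adjusted p = 0.0034).

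Amt, the aminomethyltransferase of the system, rose by 0.51 ± 0.14 (limma adjusted p = 0.0169, and 0.0528 without MCD 2). Gcsh, its lipoyl carrier, rose by 0.29 ± 0.09 (0.0372), a call that 9 of the 11 fits without 1 library lost (largest adjusted p 0.111). The remaining subunit, Dld, which also serves other dehydrogenase complexes, had a log2 fold change of 0.11 ± 0.11 and was not called, and neither was Srr, the serine racemase, at 0.29 ± 0.11.

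In the folate arm 2 of 5 genes rose (40.0%, against 7.24% of all genes tested) and 3 were not called. Both that rose act in the cytosol. Shmt1 (chr11:60788104-60811718), the cytosolic enzyme that moves a carbon between serine and folate, varied little between limonin livers (coefficient of variation 4.92%). It had a low of 36.4, a median of 37.8 and a high of 41.6 FPKM in limonin livers, against 25.8, 27.1, 30.7, 35.4 and 29.3 FPKM in MCD 1 to 5. All limonin libraries were above all MCD libraries, and Shmt1 rose by 0.37 ± 0.09 on the log2 scale (limma adjusted p = 0.0125, at most 0.0443 with 1 library left out).

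Mthfd1 (chr12:76255298-76319803), the trifunctional cytosolic enzyme that interconverts folate forms, had a low of 25.3, a median of 29.3 and a high of 37.3 FPKM in limonin livers, against 20.5, 20.6, 24.0, 25.2 and 23.7 FPKM in MCD 1 to 5. The groups did not overlap, by a narrow margin. It rose by 0.37 ± 0.10 (limma adjusted p = 0.0202) and lost the call without MCD 1 or MCD 2 (largest adjusted p 0.0651), where the genes of this arm called higher numbered 1.

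The mitochondrial counterparts were not called. Shmt2 was abundant and close between groups, at 56.2 to 71.2 FPKM in limonin livers and 56.9 to 63.4 FPKM in MCD livers, with a log2 fold change of 0.05 ± 0.09 (limma adjusted p = 0.731). Mthfd1l, which completes formate production, ran from 0.913 to 2.33 FPKM in limonin livers and from 1.44 to 2.29 FPKM in MCD livers, with a log2 fold change of -0.11 ± 0.13 that turned to 0.02 after quantile normalization. The ratio of Shmt1 to Shmt2 was 0.548 to 0.693 in limonin livers (median 0.584) and 0.407 to 0.621 in MCD livers (median 0.466), with 2 limonin libraries above every MCD library and MCD 4 the highest of its group.

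Mthfd2, the mitochondrial dehydrogenase best known from growing cells, was low in both groups. It was at 0.668, 0.549, 2.43, 0.685, 0.451 and 0.460 FPKM in limonin 1 to 6 and 2.32, 1.79, 1.25, 1.03 and 2.19 FPKM in MCD 1 to 5. Limonin 3 was above every MCD library and the other 5 limonin libraries were below every MCD library. The log2 fold change was -0.59 ± 0.21 (limma adjusted p = 0.0588), and without limonin 3 it was -0.78 (adjusted p = 0.00333) and it was called. It was also called without MCD 4 and with a pseudocount of 0.1. Like Phgdh it reached 1 FPKM in 1 limonin library and in all 5 MCD libraries, and limonin 3 also had the highest cholangiocyte marker sum of its group, whose part in the result was not tested.

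Of 15 further folate genes tested 2 rose (13.3%, against 7.24% of all genes tested) and 13 were not called. Ftcd, which passes a carbon from histidine breakdown to folate, averaged 110.2 ± 10.5 FPKM in limonin livers and 75.7 ± 15.5 FPKM in MCD livers, a log2 fold change of 0.55 ± 0.12 (limma adjusted p = 0.0073). Slc46a1, the proton-coupled folate transporter gene, rose by 0.42 ± 0.12 (0.0238) and lost the call without MCD 1, 2 or 3 (largest adjusted p 0.0565). Aldh1l1, which burns off folate-bound formyl groups, and the reduced folate carrier gene Slc19a1 had log2 fold changes of 0.38 ± 0.15 and 0.31 ± 0.12 and were not called.

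Over the 74 tested genes that border the 6 arms, 15 rose (20.3%), 2 fell (2.70%) and 57 were not called, beside 7.24% and 18.7% of all genes tested. Leaving out MCD 1 or MCD 3 left 8 of them called higher and leaving out MCD 2 left 7, and 1 was called lower without MCD 2 and 6 without limonin 3. Of the 33 genes, 5 had every limonin library above every MCD library (Ahcy, Etnppl, Sardh, Shmt1 and Mthfd1), an arrangement found in 2.97% of all genes tested. In 0 of the 33 did every limonin library lie below every MCD library, against 8.33% of all genes tested, although limma called 3 of them lower and 5 of 6 limonin libraries did so for Phgdh.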

How the data were processed

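Poly(A) RNA from 11 livers was sequenced, 6 of the limonin group and 5 of the MCD group, each library from 1 sample of its group, so p-values measure the spread between these samples. The submitters' processing notes name StringTie 1.3.4d, HISAT2 2.0.4 and cutadapt 1.9. They name the human build GRCh38, while the table's gene identifiers are those of mouse. Per the file headers, the authors deposited FPKM for every gene in each library. The authors' ratio (fold) of group means, its log2, and p-values and q-values are deposited beside them, per the file headers, with no test named. In all 31280 genes their significance mark was present exactly where q was under 0.05 and the fold at least 1.5. FPKM hold no fragment numbers, so no intervals from counting are given. Fragments per library were estimated from the smallest steps of FPKM multiplied by transcript length. No pair of the 55 library pairs held identical values.

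Of these genes, 10489 reached 1 FPKM in 5 or more libraries and were tested on log2(FPKM + 1) by limma 3.58.1 under R 4.3.3, with the robust and trend options (two-sided, Benjamini-Hochberg adjustment over all genes tested, threshold 0.05). Fold changes are limonin minus MCD, and on this scale those of low genes are understated. The 33 genes, the bordering lists, the marker lists and the alternatives were chosen with earlier results of these data known. All 33 genes are named, and of each bordering list up to 4 tested genes with the smallest p. Dld, Epcam, Krt19, Spp1, Cldn4, Sox9, Cd79a, Asns, Trib3 and Chac1 were singled out after their values were seen. The settings varied were the filter (none, or 5 FPKM), a pseudocount of 0.1, median-ratio, quantile and equal-sum scaling, limma without trend, the replicate number as a block, libraries left out, and the authors' deposited calls. Equal-sum scaling and the removal of limonin 5 and 6 or MCD 4 and 5 were added after seeing the data. Gene coordinates come from GENCODE M21 (GRCm38), matched by identifier for 31191 of 31280 genes, and promoter windows from RefSeq (GRCm38.p6).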

Additional observations from a re-analysis of the deposited data

Results flagged for a closer look

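In 7 of the 66 groups of values tested (33 genes in each of 2 groups), 1 library lay far from the others of its group. The rule flags about 1 in 20 groups of independent values. Genes measured in the same libraries are not independent, and no share over all genes is given, so whether 7 is many cannot be told. Limonin 2 was high for Mat1a (1476 FPKM, the others 724 to 888) and limonin 3 was low for Bhmt (318 FPKM, the others 621 to 885) and high for Mthfd2 (2.43 FPKM, the others 0.451 to 0.685). MCD 1 was high for Mtrr (1.98 FPKM, the others 1.34 to 1.45) and low for Pemt (213 FPKM, the others 254 to 269.6) and Cbs (21.7 FPKM, the others 28.8 to 30.6). MCD 2 was low for Etnppl (2.60 FPKM, the others 4.70 to 5.00).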

How the results depend on the processing

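Over 22 alternatives the members gave 695 results, of which 577 kept their direction and side of the threshold, 68 lost a call, 40 gained one and 10 turned sign. Members called higher, 9 as reported, numbered 2 with no filter (where 31280 genes were tested), 14 after median-ratio or equal-sum scaling, 16 in the authors' deposited table and 3 to 11 with 1 library left out. Members called lower, 3 as reported, numbered 1 under these 4 settings, 0 without MCD 4 and 5 and 1 to 3 with 1 library left out. Over all genes the counts also moved. Those called higher, 759 as reported, numbered 412 with no filter, 1466 after median-ratio scaling, 1096 at equal sums and 1844 in the authors' deposited table, and those called lower, 1957 as reported, numbered 1778, 1597, 1112 and 1272 under the same settings and 1285 without MCD 4 and 5. Bordering genes called higher, 15 as reported, numbered 7 with no filter, 25 after median-ratio or quantile scaling, 24 at equal sums, 30 in the authors' deposited table and 7 to 19 with 1 library left out. Those called lower, 2 as reported, numbered 1 at equal sums or with a filter at 5 FPKM and 1 to 6 with 1 library left out. The cause was not tested.

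The replicate numbers are shared by both groups but did not pair the libraries: the correlation of same-numbered libraries ran from -0.235 to 0.204, and 1 of 5 limonin libraries correlated best with its own number. With the replicate block, 1 member was called higher (Sardh) and 1 lower (Phgdh), against 363 and 893 of all genes, and 7 bordering genes were called higher and 1 lower. Signs turned only for small changes, in Pemt at equal sums (0.01), Shmt2 without limonin 5 and 6 (-0.02), Mthfd1l after quantile normalization (0.02) and Slc44a1 (-0.04 without MCD 4 and 5, and -0.04 to 0.08 with 1 library left out). Mtr and Phgdh limit what low values can show, since the number of fragments behind an FPKM under 1 is not given and library depth was only estimated.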
